A study of Homo sapiens with 19 samples.

Results

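The genes described here encode the proteins of the cytosolic ribosome. They were chosen by symbol: a gene was taken when the tables call it protein coding, when its symbol is RPL, RPS or RPLP followed by a number with at most an A, X or L and a further digit, and when it is listed in all 3 deposited tables. That gave 81 of the 17886 genes listed in all 3 tables. Of these, 46 encode proteins of the large subunit, 29 encode proteins of the small subunit, and 6 are variants with a close relative among the ordinary members: RPL3L, RPL7L1, RPL22L1, RPL26L1, RPL39L and RPS27L. Symbols that matched the pattern but were not listed in every table were left out. Of the 81 genes, 80 had a mean of at least 10 normalized counts in each table and were tested, and the muscle-type variant RPL3L was below that level in every table.

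RNA was sequenced from MDA-MB-231, an established line of triple-negative human breast cancer cells, in 19 libraries. In the culture table, spheres were taken after 16 h or 5 d of suspension in non-adherent plates, in DMEM/F12 to which B27, EGF and FGF had been added, and adherent cells grew in DMEM with 10% FCS (n = 2 each). In the siSCIRT table, cells received siSCIRT#1 or siSCIRT#2, which target the long noncoding RNA SCIRT, or the control siRNA siNC (n = 3 each). In the siEZH2 table, cells received siEZH2, against the histone methyltransferase EZH2, or siNC (n = 2 each). All siRNA cells were reverse transfected and then kept in sphere medium for 48 h, and no siRNA group was adherent. Nothing in the labels tells if replicates came from separate cultures, and a p-value here reflects the spread among the sequenced libraries alone. Attachment, serum and growth factors changed together between adherent cells and spheres and cannot be told apart.

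A ribosome is built from a small subunit, which reads the mRNA, and a large subunit, which joins the amino acids. Nearly all of its proteins are made in equal numbers, so their genes are expressed at high and similar levels, and proteins left without a partner are degraded. Most mRNAs of these proteins begin with a C followed by a run of pyrimidines, the 5′ terminal oligopyrimidine or TOP tract, through which LARP1 and the mTOR kinase control their translation and stability with nutrient supply. Some subunits also have duties outside the ribosome, as in the p53 checkpoint, where free RPL5 and RPL11 hold back MDM2.

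Values are normalized counts, which are reads per gene divided by a size factor for each library, and each table was normalized on its own. Sequencing was shallowest for culture, at 6104222 to 14781941 reads per library, and deeper for the siRNA experiments, at 38635418 to 62218847 for siSCIRT with its siNC and 27989577 to 38955312 for siEZH2 with its siNC. VIM, CD44, CAV1, MSN and AXL, which mark this mesenchymal line, were all detected in every culture library (the highest, VIM, at 31547 to 62201 normalized counts). ESR1 did not exceed 1.51 there. Of the 3 listed genes taken as absent or low in this line, ESR1 among them, 1 did pass the mean of 10 normalized counts. That gene was called lower at 16 h over adherent cells, with a log2 fold change of -1.10. SCIRT, listed as RP5-1120P11.1, had 112 to 127 normalized counts with siSCIRT#1 and 105 to 159 with siSCIRT#2, against 256 to 287 with siNC, and EZH2 had 275 and 278 with siEZH2, against 518 and 529 with siNC. Between replicates, the chi-square per degree of freedom over all genes was 2.03 to 2.08 in the culture groups, against 5.19 to 26.7 in the siSCIRT groups and 15.1 to 15.3 in the siEZH2 groups, where 1 is reading error alone. It was computed on reads and grows with depth, so it does not compare the scatter of the tables. The median SE of the members' log2 fold changes in limma was 0.0287 for culture, against 0.111 for siSCIRT and 0.125 for siEZH2. A log2 difference of a given size can therefore pass the test among the culture libraries and miss it in the siRNA tables. Ribosomal protein genes have many processed pseudogenes. Reads assigned to the pseudogenes named in the tables came to 0.139% to 0.341% of the members' reads, and reads that the authors' counting may have placed on the wrong copy cannot be identified from these tables.

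The bases around the annotated transcription start show the TOP tract, and they are printed for some members on which the results turn, with RPS27L, RPL22L1 and RPL26L1 each below its relative. Each line is 30 bases of the sense strand from RefSeq on GRCh38.p14, with the annotated start as base 16, and capitals mark a tract of a C at that base followed by at least 4 further C or T. A line with no capitals holds no such tract at its annotated start. Where a gene had several annotated starts, the start with the longest tract was taken.
RPS27 (chr1:153990747-153990776, plus strand): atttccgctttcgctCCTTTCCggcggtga
RPS27L (chr15:63157463-63157492, minus strand): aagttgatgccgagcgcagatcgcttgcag
RPL22 (chr1:6199581-6199610, minus strand): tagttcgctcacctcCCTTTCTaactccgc
RPL22L1 (chr3:170870181-170870210, minus strand): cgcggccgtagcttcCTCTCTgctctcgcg
RPL26 (chr17:8383179-8383208, minus strand): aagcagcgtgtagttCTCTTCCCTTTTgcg
RPL26L1 (chr5:172958714-172958743, plus strand): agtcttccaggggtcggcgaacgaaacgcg
RPL7L1 (chr6:42879601-42879630, plus strand): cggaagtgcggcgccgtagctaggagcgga
RPS14 (chr5:150449725-150449754, minus strand): ccgccccctcccactCTCTCTTTCCggtgt
RPL10 (chrX:154398362-154398391, plus strand): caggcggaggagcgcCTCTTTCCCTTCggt
RPLP0 (chr12:120201097-120201126, minus strand): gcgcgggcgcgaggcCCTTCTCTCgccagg
RPL15 (chr3:23916530-23916559, plus strand): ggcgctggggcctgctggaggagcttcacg
RPL38 (chr17:74203663-74203692, plus strand): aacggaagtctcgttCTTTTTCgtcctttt
RPS25 (chr11:119018329-119018358, minus strand): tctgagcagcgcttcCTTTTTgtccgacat
RPL24 (chr3:101686704-101686733, minus strand): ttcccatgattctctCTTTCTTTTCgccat

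Of the 81 members, 65 had a RefSeq start window, and 46 of those (70.8%) carried the tract at an annotated start. The shares were 17 of 23 small-subunit genes (73.9%), 28 of 38 large-subunit genes (73.7%) and 1 of 4 variants, RPL22L1. Among all 27305 genes with a window, 1404 (5.14%) carried it, by the same rule that a tract at any annotated start counts. Counted by start and not by gene, 46 of 81 starts of members (56.8%) carried the tract, against 4.07% of all 35116 starts. The search was on the sense strand at the annotated base only, so a tract a few bases away was not counted, and a window without one says nothing of how the mRNA is translated.

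Per kilobase of mRNA, the small-subunit genes had a median level of 7022 normalized counts in adherent cells, the large-subunit genes 8168 and the variants 433. The length is that of 1 annotated transcript per gene, and a level is too low where these cells make a shorter one. RPS18, an rRNA-binding protein of the small subunit's head, and RPLP0, the base of the stalk that recruits translation factors, led with 27555 and 26440 normalized counts per kilobase. Members together took 5.73% and 5.74% of all reads in adherent cells, 6.88% and 6.90% in 16 h spheres and 4.66% in both 5 d libraries. The spheres at 16 h therefore lay above the adherent cells and the spheres at 5 d below them, with no overlap in either direction. In the siRNA tables the shares were 4.29% to 5.17% with siSCIRT#1 and 4.09% to 4.78% with siSCIRT#2, against 3.98% to 4.65% with siNC, and 3.95% and 3.77% with siEZH2, against 3.65% and 3.81% with siNC. These siRNA ranges overlap. In bulk RNA, fewer cells with a given content and less RNA per cell cannot be told apart.

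**Figure D1:**
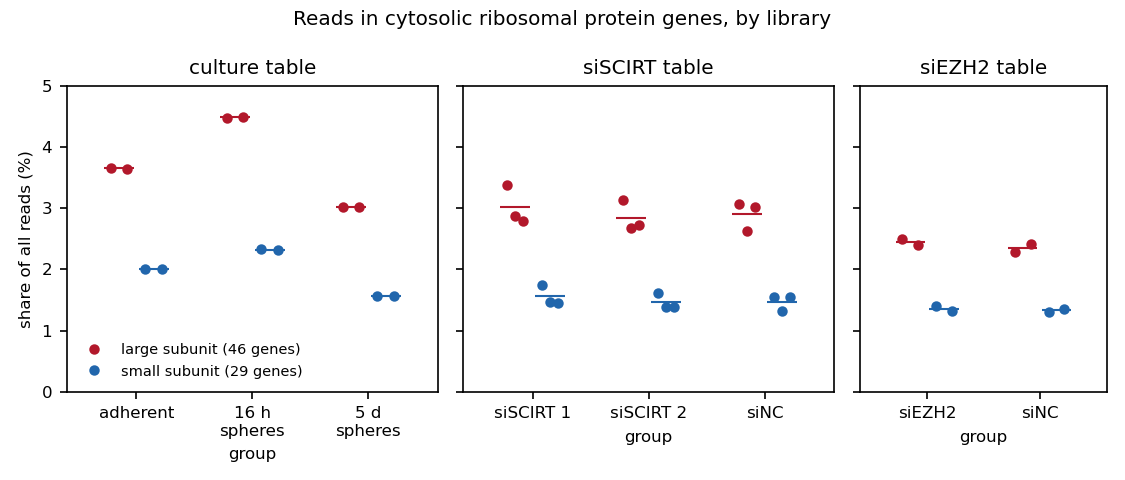
Share of all reads in each library taken by large-subunit (46 genes) and small-subunit (29 genes) ribosomal protein genes, in percent, with 1 panel per table, 1 point per library and a line at each group mean. In the culture panel both subunits are highest at 16 h and lowest at 5 d, and in the siRNA panels the groups overlap.

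At 16 h in suspension the ribosomal protein genes were higher almost throughout, except under quantile normalization, which turned 13 of the called risers lower. Of the 75 small- and large-subunit genes, 72 rose over adherent cells and none fell, and in all 72 both sphere libraries lay above both adherent libraries. The share of all genes whose libraries separate in this way is not given here. The median log2 fold change of the 75 was 0.51. Among all 13789 genes tested, 27.4% were called higher and 26.5% lower (limma, Benjamini-Hochberg adjusted p under 0.05), with a median of -0.01. Among the 1887 other genes with a mean of at least 1000 normalized counts, 48.2% were called higher and the median was 0.09. The rise covered both subunits: 28 of 29 small-subunit genes rose, with a median of 0.48, and 44 of 46 large-subunit genes rose, with a median of 0.54. The reads of the large-subunit genes were 1.82 times those of the small-subunit genes in adherent cells, 1.93 times at 16 h and 1.92 times at 5 d. The size of the rise depends on scaling, as given further on.

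The largest rises at 16 h belonged to RPS14, RPL31 and RPL13. RPS14, a small-subunit protein whose loss of 1 copy underlies the anaemia of 5q deletion, had 5094 and 5315 normalized counts in 16 h spheres, against 2889 and 2979 in adherent cells, a log2 fold change of 0.83 (SE 0.04, limma adjusted p = 1.56e-20). With 2 libraries per group, such an SE rests on the spread limma pools over genes of like abundance. RPL31, at the exit of the large subunit's peptide tunnel, had 10270 and 10469 in 16 h spheres, against 5933 and 5841 in adherent cells, a log2 fold change of 0.82 (SE 0.03). RPL13, a large-subunit protein, had 14767 and 15049 in 16 h spheres, against 8899 and 8616 in adherent cells, a log2 fold change of 0.77 (SE 0.03). In all 3 genes the groups were far apart relative to the gap between replicates. RPL10A followed with 0.75, and RPL3, which reaches toward the peptidyl transferase centre, RPL12, a stalk-base protein, and RPL26 with 0.72 each. RPL35, at 0.49, lay near the middle of the members. The smallest called rises were those of RPL19 with 0.17 (SE 0.02), RPS16 with 0.19 (SE 0.03) and RPS7 with 0.21 (SE 0.03), and all 3 turned negative when libraries were scaled to total reads or by quantiles.

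At 5 d most of these genes were below the adherent level. Of the 75 small- and large-subunit genes, 53 fell below adherent cells, 9 rose and 13 did not pass the test, with a median log2 fold change of -0.28, against 28.9% lower, 26.3% higher and a median of -0.02 over all genes tested. Among the 1887 other genes with a mean of at least 1000 normalized counts, 37.9% were called lower and 42.7% higher, with a median of 0.04. Against 16 h spheres, 72 of the 75 fell and none rose, with a median of -0.75, against 25.5% lower and 22.8% higher over all genes. Among the 1887 other abundant genes, 44.5% were called lower and 32.3% higher there, with a median of -0.05. Of the 72 genes that had risen at 16 h, 53 were below adherent cells at 5 d, 9 were still above them and 10 did not pass the test. Both time points share the adherent libraries, and both contrasts with the 16 h spheres share those, so the 3 comparisons are not independent. Both subunits held mostly genes that fell: 23 of 29 small-subunit genes and 30 of 46 large-subunit genes fell, with medians of -0.29 and -0.26.

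**Figure D2:**
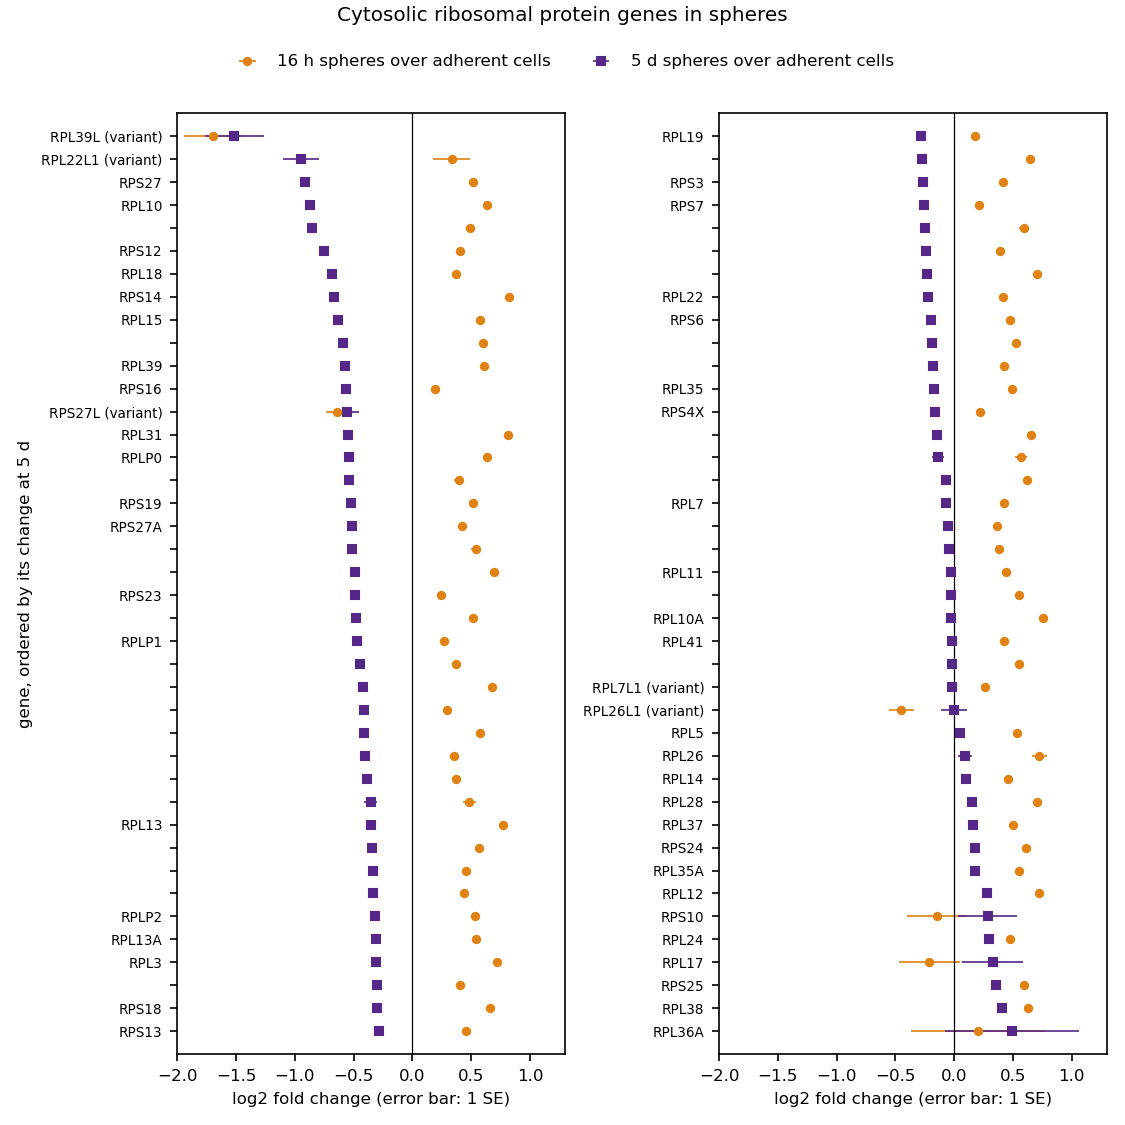
Log2 fold change of each of 80 ribosomal protein genes in 16 h spheres and in 5 d spheres over adherent cells, with bars of 1 SE, ordered by the 5 d value (n = 2 libraries per group); members described in the text are labelled. Nearly all small- and large-subunit genes lie above 0 at 16 h, most lie below 0 at 5 d, and the spread among genes is wide at 5 d, from RPS27 at -0.91 to RPL38 at 0.41 among the called ordinary members.

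Among the deepest falls at 5 d of the ordinary members were those of RPS27 and RPL10. RPS27, a zinc-binding small-subunit protein, had 4537 and 4649 normalized counts in adherent cells, 6543 and 6561 at 16 h, and 2414 and 2468 at 5 d. Its log2 fold change at 5 d was -0.91 over adherent cells (SE 0.03, limma adjusted p = 5.38e-24) and -1.42 over 16 h spheres. RPL10, which joins late and completes the large subunit, had 9529 and 9299 in adherent cells, 14130 and 15099 at 16 h, and 5338 and 4939 at 5 d. Its level was thus highest at 16 h and lowest at 5 d, with log2 fold changes at 5 d of -0.87 over adherent cells (SE 0.03) and -1.51 over 16 h spheres. RPS12 fell by 0.75, RPL18 by 0.68, RPS14 by 0.67 and RPL15 by 0.63 on the log2 scale over adherent cells. RPL19 and RPS13, which fell by 0.28 and 0.29, lay nearest the median. RPS14, first in rise at 16 h, was among the deepest falls against 16 h spheres, with 1872 and 1818 at 5 d and a log2 fold change of -1.50 (SE 0.04).

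The 9 genes still above adherent cells at 5 d were RPL38, RPS25, RPL24, RPL12, RPL35A, RPS24, RPL37, RPL28 and RPL14. RPL38, known for its part in the translation of Hox mRNAs in mouse embryos, had 2966 and 2916 normalized counts in adherent cells, 4486 and 4623 at 16 h, and 3894 and 3924 at 5 d, a log2 fold change of 0.41 at 5 d (SE 0.03, limma adjusted p = 6.04e-13). RPS25, which viral internal ribosome entry sites need, had 4583 and 4659 in adherent cells, 7181 and 6759 at 16 h, and 5978 and 5850 at 5 d, a log2 fold change of 0.36 at 5 d (SE 0.03). RPL24, a protein of the bridge between the subunits, had 4465 and 4468 in adherent cells, 6147 and 6285 at 16 h, and 5516 and 5447 at 5 d, a log2 fold change of 0.30 (SE 0.03). In these 3 genes the 5 d libraries lay between adherent cells and 16 h spheres without overlap, and the log2 fold changes over 16 h spheres were -0.22, -0.24 and -0.18, all of which turned positive under quantile normalization and, for RPL24, also under scaling to total reads. RPL12 was higher at 5 d by 0.28 on the log2 scale, and RPL35A, RPS24, RPL37, RPL28 and RPL14 by 0.18 to 0.10. None of the 9 reached a fold of 1.5 at 5 d over adherent cells, whereas 10 of the falling members did.

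**Figure D3:**
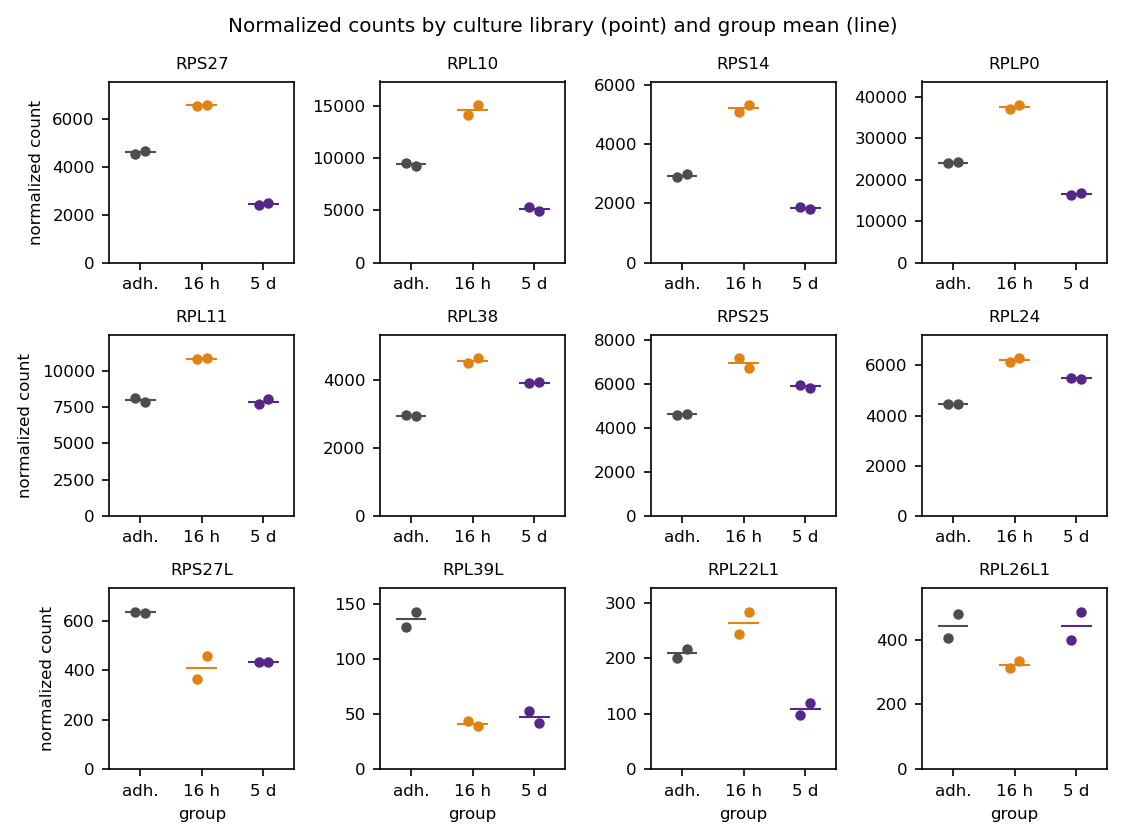
Normalized counts in each culture library (1 point per library, a line at the mean of the 2 libraries of each group, in adherent cells (adh.), 16 h and 5 d spheres) for 12 ribosomal protein genes. RPS27, RPL10, RPS14 and RPLP0 peak at 16 h and fall below adherent cells at 5 d, RPL11 returns to the adherent level, RPL38, RPS25 and RPL24 stay above it, and RPS27L and RPL39L are lower at both times.

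Members with known roles divided along the same lines. In the stalk, RPLP0 had 24042 and 24184 normalized counts in adherent cells, 37064 and 38025 at 16 h, and 16360 and 16812 at 5 d, with log2 fold changes over adherent cells of 0.64 at 16 h (SE 0.02, not called under quantile normalization) and -0.54 at 5 d (SE 0.02). Its partners, which bind as dimers and contact the elongation factors, had log2 fold changes of 0.27 at 16 h (negative under quantile normalization) and -0.47 at 5 d for RPLP1, and 0.54 and -0.32 for RPLP2. RPL5 and RPL11, which travel with the 5S rRNA and bind MDM2 when free, both rose at 16 h, by 0.53 and 0.44, although the RPL5 value turned negative under quantile normalization. At 5 d RPL5 had 10267 and 10243 normalized counts, against 10032 and 9798 in adherent cells (log2 fold change 0.05, limma adjusted p = 0.0618), and RPL11 had 7686 and 8017, against 8128 and 7862 (log2 fold change -0.03). The RPL11 groups overlap, and neither gene passed the test at 5 d over adherent cells, although RPL5 was called in 6 of the alternative settings and RPL11 in 2. RPS6, the small-subunit protein that S6 kinase phosphorylates, had 9445 and 9231 in adherent cells, 12875 and 13150 at 16 h, and 7989 and 8258 at 5 d, with log2 fold changes over adherent cells of 0.48 at 16 h (negative under quantile normalization) and -0.20 at 5 d.

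RPS19, the gene most often mutated in Diamond-Blackfan anaemia, had log2 fold changes over adherent cells of 0.51 at 16 h and -0.52 at 5 d. RPS27A, made as a fusion with ubiquitin, rose by 0.43 at 16 h and fell by 0.51 at 5 d. RPS3, at the mRNA entry and also active in DNA repair, rose by 0.41 (negative under quantile normalization) and fell by 0.26, and RPL13A, which can leave the ribosome to silence inflammatory mRNAs, rose by 0.54 and fell by 0.31. RPL10A and RPL41 rose at 16 h, by 0.75 and 0.43, and were close to the adherent level at 5 d. RPL10A had 8249 and 8250 at 5 d, against 8472 and 8315 in adherent cells (log2 fold change -0.02), and RPL41, which encodes the shortest ribosomal protein, had 4673 and 4861, against 4878 and 4782 (log2 fold change -0.02). Neither passed the test at 5 d over adherent cells.

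The changes were also set against features of the mRNAs. Across the 75 ordinary members, Spearman's rho of the log2 fold change with mRNA length was 0.14 at 16 h and 0.01 at 5 d over adherent cells, and with mRNA GC content 0.07 and -0.15. Length and GC content are those of 1 annotated transcript per gene, from 296 nt for RPS29 to 3647 nt for RPL37A. Whether these cells make that transcript was not tested, so the values of rho may rest on wrong lengths. The genes are not independent replicates, and they share all libraries. The 45 small- and large-subunit genes with a TOP tract at an annotated start had median log2 fold changes of 0.51 at 16 h and -0.30 at 5 d over adherent cells. The 16 with a window and no tract at any start had 0.43 and -0.25. The variants were left out of both classes. The ranges of both classes overlap widely, and the difference was not tested. In the printed windows, RPS27 and RPL10, which fell at 5 d, and RPL38, RPS25 and RPL24, which were higher, all carry the tract, while RPL15, which fell, has none at its annotated start.

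Most variants had values on the other side of 0 from their relatives at 16 h. Of the 5 tested, 3 were called lower at 16 h over adherent cells and 1 higher, with a median log2 fold change of -0.45. RPS27L, a paralogue of RPS27 known as a p53 target, had 362 and 456 normalized counts in 16 h spheres, against 637 and 630 in adherent cells (log2 fold change -0.64, SE 0.10, limma adjusted p = 7.13e-07), while RPS27 had a log2 fold change of 0.51. RPL39L, a paralogue of RPL39 best known from male germ cells, had 43.7 and 39.1 in 16 h spheres, against 129 and 143 in adherent cells (log2 fold change -1.69, SE 0.25, limma adjusted p = 3.62e-07), while RPL39 had a log2 fold change of 0.61. RPL26L1 had 311 and 333 in 16 h spheres, against 404 and 479 in adherent cells (log2 fold change -0.45, SE 0.11), while RPL26 rose by 0.72. In all 3 variants both 16 h libraries lay below both adherent libraries. The call on RPL26L1 at 16 h was lost when adherent replicate 2 was left out. The difference between a variant and its relative was not tested.

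RPL22L1, whose product replaces the RNA-binding protein RPL22 in part of the ribosomes, did not pass the test at 16 h, with 244 and 285 normalized counts in 16 h spheres, against 201 and 217 in adherent cells (log2 fold change 0.33, SE 0.15, limma adjusted p = 0.067), although it was called in 5 of the alternative settings. At 5 d it fell to 98.3 and 119, a log2 fold change of -0.95 over adherent cells (SE 0.15, limma adjusted p = 2.52e-06), against -0.23 for RPL22. RPL7L1, a factor of large-subunit assembly related to RPL7, rose by 0.26 at 16 h (SE 0.03; negative under quantile normalization) and was at -0.02 at 5 d, where RPL7 was at -0.07. At 5 d RPL39L had 52.8 and 41.6 (log2 fold change over adherent cells -1.52, SE 0.25) and RPS27L 432 and 431 (-0.55, SE 0.10), and neither passed the test against 16 h spheres. RPL26L1 had 398 and 487 at 5 d, its log2 fold change over adherent cells was 0.00, and it was the only called riser against 16 h spheres (0.45, SE 0.11). The RPL7 call at 5 d was lost in 6 of the alternative settings.

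RPS10, RPL17 and RPL36A, the 3 ordinary members not called at either time, are core ribosomal proteins but were listed at 47.6 to 73.9 normalized counts for RPS10 and RPL17 and 7.31 to 17.6 for RPL36A in the culture libraries. In GENCODE v29, each has a readthrough gene that spans it, RPS10-NUDT3, RPL17-C18orf32 and RPL36A-HNRNPH2, with which reads could be shared or left uncounted. RPS10 had 57.3 and 59.1 in adherent cells, 52.2 and 52.5 at 16 h, and 68.3 and 73.9 at 5 d. Whether these levels are those of the genes was not tested.

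How far the members rose depends on what each library is scaled to. The authors' size factors and TMM both gave a median log2 fold change of 0.49 for the 80 members at 16 h over adherent cells. Scaling to total reads gave 0.24, with the median of all genes at -0.26, and scaling to the reads outside mitochondrial genes and the members gave 0.28, with all genes at -0.21. The distance between the members and all genes was near 0.50 in each of these. At 5 d over adherent cells the members' median lay between -0.34 and -0.27 under all 5 scalings. Quantile normalization, which forces the same distribution on every library, gave 0.0905 at 16 h, with 44 members called higher and 16 lower, and the values of RPL7L1, RPLP1, RPS6, RPS3 and RPL5 then lay below 0. The 16 h calls of RPLP0, RPL11, RPL13A and RPS27A were lost under quantile normalization, and those of RPLP1 and RPL7L1 under scaling to total reads or to the remaining reads. Scaling to total reads turned RPL19, RPS16, RPS23, RPS4X and RPS7 negative at 16 h, with RPL19 called lower. At 5 d over adherent cells, no called member changed sign under any of the 5 scalings. Mitochondrial genes took 6.83% and 6.89% of reads in adherent cells, 8.55% and 8.56% at 16 h, and 9.65% and 9.74% at 5 d, and the mean share of replication-dependent histone mRNAs was 0.0241% in adherent cells, 0.0490% at 16 h and 0.0280% at 5 d. The part of these shares in the members' changes was not tested.

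**Figure D4:**
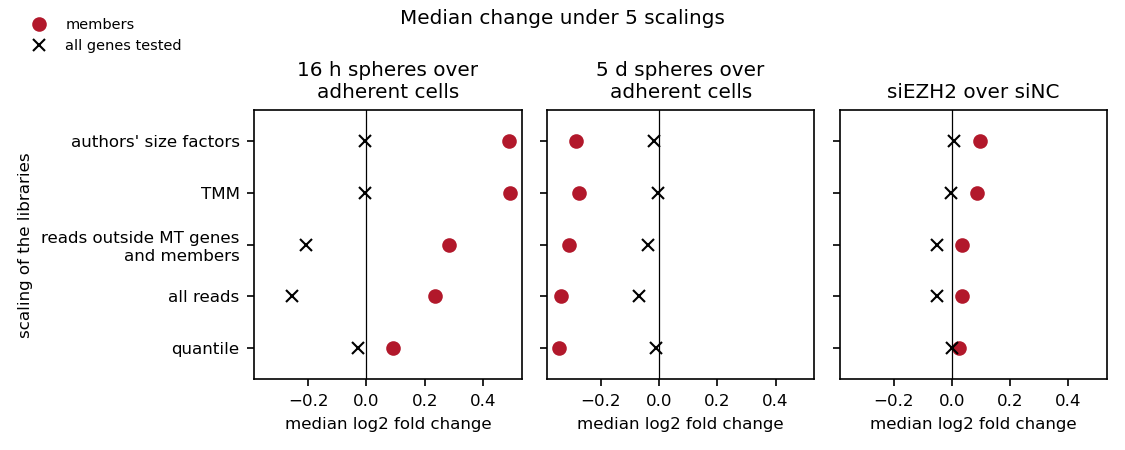
Median log2 fold change of the 80 ribosomal protein genes and of all tested genes under 5 ways of scaling the libraries, for 16 h and 5 d spheres over adherent cells and for siEZH2 over siNC. At 16 h the members' median runs from 0.0905 (quantile) to 0.49 (authors' size factors and TMM) and stays above that of all genes, and at 5 d it stays between -0.34 and -0.27.

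Other genes of the same system were read under the authors' scaling only. Among 16 TOP mRNAs for translation factors and related proteins, 12 rose and 2 fell at 16 h over adherent cells, with a median of 0.23, and 2 rose and 13 fell at 5 d, with a median of -0.28. TPT1 had a mean of 25201 normalized counts at 16 h, against 16628 in adherent cells (log2 fold change 0.60), and PABPC1, the poly(A)-binding protein, 24097, against 16462 (0.55). EEF1A1, the factor that brings aminoacyl-tRNA to the ribosome, was an exception at 16 h, with a mean of 147378, against 146847 in adherent cells (log2 fold change 0.01, not called), and at 5 d it fell to 78816 (-0.90). GNB2L1, which encodes the small-subunit protein RACK1, fell by 0.47 at 5 d, while EIF4B and PABPC1 were higher by 0.29 and 0.16. Of ribosomal protein genes whose symbols lie outside the pattern, RPSA and FAU rose at 16 h, by 0.39 and 0.53, and fell at 5 d, by 0.48 and 0.35, while RPL36AL was not called at 16 h and was higher by 0.10 at 5 d.

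Genes that build ribosomes are set against the same shares of all genes, 27.4% higher and 26.5% lower at 16 h and 26.3% higher and 28.9% lower at 5 d. Of 30 assembly factors, 5 rose and 13 fell at 16 h over adherent cells, with a median of -0.11, and 3 rose and 20 fell at 5 d, with a median of -0.29. GNL3, a nucleolar GTPase, rose by 0.37 at 16 h, DKC1, the pseudouridine synthase of box H/ACA particles, fell by 0.45, and at 5 d FBL, the rRNA 2′-O-methyltransferase, fell by 0.72. Of 74 tested mitochondrial ribosomal proteins, 8 rose and 22 fell at 16 h and 10 rose and 28 fell at 5 d, with medians of -0.11 and -0.10, so their share of falls at 16 h lay near that of all genes. Of 17 genes that control TOP mRNAs, 4 rose and 5 fell at 16 h, and 6 rose and 7 fell at 5 d. DDIT4, an inhibitor of mTORC1, had a mean of 10936 normalized counts at 16 h, against 1541 in adherent cells (log2 fold change 2.83), and stood at 2.19 over adherent cells at 5 d. EIF4EBP1, the translation repressor that mTOR inactivates, fell by 0.76 at 16 h and by 1.06 at 5 d, and RHEB, the GTPase that activates mTORC1, by 0.48 and 0.53. MYC, which drives transcription of ribosomal protein genes, rose by 0.29 at 16 h.

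With SCIRT depleted, no ribosomal protein gene passed the threshold in the main fit. With the replicate number added to the model as a block, 1 member was called higher and 1 lower with siSCIRT#1, and 1 lower with siSCIRT#2. With siSCIRT#1, 0 of 80 members were called higher or lower than with siNC, against 4.63% higher and 5.56% lower among all 16607 genes tested. The members' median was 0.03 and their range -0.58 to 0.25, and the median turned to -0.08 without siSCIRT#1 replicate 1 and became 0.10 without siSCIRT#1 replicate 3. With siSCIRT#2, 0 of 80 were called, against 4.49% higher and 5.05% lower, and the median was -0.05, against -0.13 without siSCIRT#2 replicate 1 and 0.00 without siSCIRT#2 replicate 2. At an unadjusted p under 0.05, limma gave 1 higher and 1 lower with siSCIRT#1 and 0 higher and 1 lower with siSCIRT#2. edgeR called none and DESeq2 called RPL39L lower for each siRNA. Both siRNAs share the same siNC libraries. The replicate SD of the members' median was 0.159 on the log2 scale in this table, so neither median is larger than the spread between replicates.

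**Figure D5:**
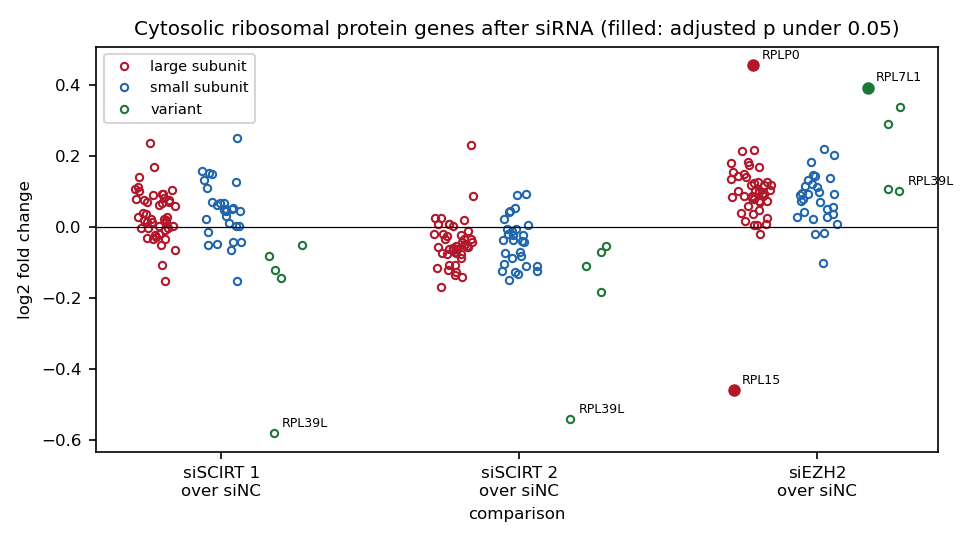
Log2 fold changes of 80 ribosomal protein genes with siSCIRT#1, siSCIRT#2 and siEZH2, each over its own siNC control, with 1 point per gene and filled points for genes called by limma at adjusted p under 0.05. No point is filled for either siSCIRT siRNA, and RPLP0, RPL7L1 and RPL15 are filled for siEZH2.

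RPL39L came closest to a call. It had 531, 387 and 331 normalized counts with siSCIRT#1 and 518, 410 and 347 with siSCIRT#2, against 607, 534 and 702 with siNC. All 6 siSCIRT libraries lay below all 3 siNC libraries. The log2 fold changes were -0.58 (SE 0.18, limma adjusted p = 0.0515) and -0.54 (SE 0.18, limma adjusted p = 0.0714). Over 23 settings the adjusted p ran from 0.00437 to 0.209 for siSCIRT#1, with 12 under 0.05, and from 0.00753 to 0.257 for siSCIRT#2, with 5 under 0.05. RPS18 had the largest positive value with siSCIRT#1, with 87573, 69051 and 67607, against 66923, 57353 and 63306 with siNC (log2 fold change 0.25, limma adjusted p = 0.157). With siSCIRT#2 it had 73147, 58772 and 68262 (0.09), which overlaps siNC. RPLP0 had 159087, 134085 and 125600 with siSCIRT#1 and 137928, 119831 and 123944 with siSCIRT#2, against 145055, 117682 and 133933 with siNC, and all 3 groups overlap.

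The siRNAs against SCIRT gave no called difference from each other. Of 80 members, 0 were called between siSCIRT#1 and siSCIRT#2 by limma, edgeR or DESeq2, 0 had an unadjusted limma p under 0.05, and limma called 0% of all genes. Of the values, 75 lay above 0 and 5 below. This count is not set against its share over all genes, so it is not read as a result about the members. The median was 0.08, smaller than the replicate SD of 0.159 of the members' median in this table. It became -0.03 without siSCIRT#1 replicate 1, the library with the highest share of members' reads in the table, 5.17%. The libraries read as siSCIRT#1 were assigned by elimination, because their column names carry no siRNA number. Among related genes, DKC1 fell with both siRNAs, by 0.37 and 0.41 on the log2 scale (limma adjusted p = 0.00308 and 0.0016). Over all genes tested, 5.56% were called lower and 4.63% higher with siSCIRT#1, and 5.05% and 4.49% with siSCIRT#2. Of 30 assembly factors, DKC1 among them, 5 fell with siSCIRT#1 and 5 with siSCIRT#2, and none rose. Whether these were the same 5 genes is not given here, and both siRNAs share the siNC libraries. Of 16 TOP mRNAs, 1 rose with siSCIRT#1, and 1 rose and 1 fell with siSCIRT#2. EIF3F, a subunit of initiation factor 3, was the riser, by 0.44 and 0.43.

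Depletion of EZH2 moved 3 of 80 members past the threshold. RPLP0 and RPL7L1 rose and RPL15 fell, against 3.9% higher and 2.94% lower among all 15823 genes tested, a share near that of genes at large. Over the 80 members the median was 0.10, against 0.01 over all genes and 0.06 over other genes with a mean of at least 1000. The members' median became 0.03 without siNC replicate 1 and 0.16 without siNC replicate 2. For 75 members the value was above 0, yet in only 30 did both siEZH2 libraries exceed both siNC libraries. Neither count is set against its share over all genes, so neither is read as a result about the members. The replicate SD of the members' median was 0.0736.

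RPLP0 had 73051 and 71753 normalized counts with siEZH2, against 47461 and 58804 with siNC (log2 fold change 0.45, SE 0.13, limma adjusted p = 0.0159). RPL7L1 had 15463 and 15700 with siEZH2, against 12411 and 11355 with siNC (log2 fold change 0.39, SE 0.12, limma adjusted p = 0.0273). RPL15, a large-subunit protein, had 20015 and 18851 with siEZH2, against 25457 and 28018 with siNC (log2 fold change -0.46, SE 0.13, limma adjusted p = 0.00844). In each gene the groups do not overlap, but the siNC libraries of RPLP0 lie far apart. The calls did not hold in all settings. RPLP0 lost its call in 4 of 18, the replicate block and the fits without siEZH2 replicate 1, siEZH2 replicate 2 or siNC replicate 1. RPL15 lost its call in 4 of 18, the replicate block and the fits without siEZH2 replicate 1, siEZH2 replicate 2 or siNC replicate 2. With 1 library left out, 1 group had a lone library assumed to vary like the others. A call lost in such a fit may reflect the smaller number of libraries. Over the 18 settings the log2 fold change ran from 0.30 to 0.61 for RPLP0 and from -0.53 to -0.39 for RPL15. RPL7L1 lost its call in 8 of 18 settings. These were the fits without any 1 of the 4 libraries, quantile normalization, scaling to total reads or to the remaining reads, and the replicate block.

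The remaining variants were not called with siEZH2. RPL26L1 had 937 and 969 normalized counts with siEZH2, against 761 and 748 with siNC (log2 fold change 0.34, limma adjusted p = 0.0982). RPL22L1 had 571 and 394, against 359 and 418 (0.29, limma adjusted p = 0.241), and RPL39L 295 and 281, against 245 and 294 (0.10). The values of RPL22L1 and RPL39L overlap between the groups. RPS6 was at 0.20 (limma adjusted p = 0.385). Of the 16 TOP mRNAs none was called with siEZH2, and of 17 genes that control TOP mRNAs 3 rose and none fell, MYC among them by 0.56 (limma adjusted p = 0.000158). Over all genes tested, 3.9% were called higher and 2.94% lower.

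The response to siEZH2 was set against that to the SCIRT siRNAs in 1 limma model over both siRNA tables, each response taken against its own siNC. EZH2 mRNA was itself called lower with both SCIRT siRNAs, with log2 fold changes of -0.53 and -0.50. It had 1670 to 1841 normalized counts with siSCIRT#1 and 1668 to 1847 with siSCIRT#2, against 2280 to 2699 with siNC. The contrast therefore does not set EZH2 loss against an unchanged EZH2 level. Of 80 members, RPL7L1 differed upward by 0.51 on the log2 scale (SE 0.10, adjusted p = 0.00136) and RPL15 downward by 0.42 (SE 0.13, adjusted p = 0.0329), against 8.51% higher and 6.51% lower among all 15369 genes tested. The model gave each gene 1 spread over both siRNA tables. The SE of the RPL7L1 difference came out below the 0.12 of its siEZH2 response alone, so its adjusted p may be too small. The SE of the RPL15 difference, 0.130, was close to the 0.127 of its siEZH2 response alone. The difference also carries the error of the siSCIRT table, so the adjusted p of RPL15 may be too small as well. RPL7L1 had 14299, 14756 and 14421 normalized counts with siSCIRT#1 and 14038, 15267 and 14588 with siSCIRT#2, all below the 15634, 15641 and 16033 with siNC, and so lay on the other side of its control from siEZH2. RPLP0 differed by 0.44 (adjusted p = 0.0545) and RPL39L by 0.66 (adjusted p = 0.0772), and neither passed. The siRNA tables were normalized separately, so the siRNA and the experiment cannot be told apart beyond what each table's own control removes.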

How the data were processed

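RNA was measured in 19 libraries of MDA-MB-231 cells; per the labels' protocols, total RNA was taken with TRI Reagent and libraries followed the TruSeq RNA v2 protocol, an unstranded kit. CASAVA 1.4, TopHat2, Partek and hg19 are named without roles, per the submitters' processing notes; the counting program is not given in the sources used here. In the tables deposited for culture and siSCIRT, values are log2, from DESeq2's variance-stabilizing transform (lowest value 13.4 and 7.48 in every library of each table), and the deposited siEZH2 table holds normalized counts, a linear signal. The design had assumed linear values throughout, so the log2 values were turned back exactly into normalized counts; dividing by each library's step gave whole reads for 100% of values (tolerance 0.05 reads), which set the depth and served edgeR 4.0.16 and DESeq2 1.42.0 as alternatives.

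Groups came from the titles. Each table was fitted whole with limma 3.58.1 in R 4.3.3 on log2 of the normalized count plus 1 (robust eBayes with a trend), leaving out genes whose mean was under 10; folds are on that scale. Genes were called at a two-sided Benjamini-Hochberg adjusted p under 0.05 over all genes tested. Of these tools, limma was tested on simulated data. The alternatives were other scalings, filters, pseudocounts, tools, a replicate block and libraries left out. Start windows are RefSeq's on GRCh38.p14, and mRNA length, GC content and readthrough genes come from GENCODE v29, neither being the authors' build.

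The members and gene lists were chosen with earlier results of these data known. Genes are named by a rule: every variant and its relative, in each comparison the 3 largest rises and 3 largest falls among called members with a mean of at least 100 and the 2 nearest the median, members of known role, and the 2 smallest adjusted p in each direction of the other lists. Members named beyond it, such as those at the ends of the order, were chosen after their values were seen. Some genes the rule would name are not reported here by name, though they stay in the counts and medians.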

Additional observations from a re-analysis of the deposited data

Results flagged for a closer look

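The responses of 2 members differed between siEZH2 and the SCIRT siRNAs by a test of the difference itself, 1 of 80 upward and 1 of 80 downward, against 8.51% and 6.51% of all genes tested. EZH2 mRNA was itself called lower with both SCIRT siRNAs. RPL7L1 was higher in the siEZH2 response by 0.51 on the log2 scale (limma adjusted p = 0.00136), with 15463 and 15700 normalized counts with siEZH2, against 12411 and 11355 with its siNC. That adjusted p, and that of RPL15 given next, may be too small, because the model pools 1 spread per gene over both siRNA tables. RPL15 was lower by 0.42 (difference -0.42, limma adjusted p = 0.0329), with 20015 and 18851 with siEZH2, against 25457 and 28018 with its siNC. Its log2 fold changes were -0.00 with siSCIRT#1 and -0.07 with siSCIRT#2. The siEZH2 calls of both genes are lost when single libraries are left out. That of RPL7L1 is also lost under quantile normalization and under scaling to total reads or to the remaining reads. No group held the 4 libraries needed to look for a single library far from the others.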

How the results depend on the processing

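At 16 h over adherent cells, quantile normalization gave 44 members higher and 16 lower with a median of 0.0905, total reads a median of 0.24, the reads outside mitochondrial genes and members 0.28, and the log2 values as deposited 0.17; a mean of at least 1000 gave 0 lower and 0.51, and a fold of at least 1.5 left 23 higher. Leaving out 1 library gave medians of 0.48 to 0.50. At 5 d over adherent cells the median was -0.27 with TMM and edgeR, -0.28 with DESeq2, -0.34 with quantile and total reads, -0.31 with the remaining reads and -0.0821 with the deposited log2 values, and a fold of at least 1.5 left 0 higher and 10 lower. At 5 d over 16 h, quantile gave 6 higher and -0.40, total reads 4 higher and -0.53, the remaining reads 4 higher and -0.55, TMM -0.72, edgeR and DESeq2 -0.73, added pseudogenes -0.72 and the deposited log2 values -0.23; a mean of at least 1000 gave 0 higher and -0.75, a fold of at least 1.5 gave 0 higher, and leaving out 1 library gave -0.76 to -0.71. Quantile normalization changed the sign of 17 called members at 16 h over adherent cells (1 of them to exactly 0) and of 9 at 5 d over 16 h. Of the members named by rule, it reversed, at 16 h over adherent cells, RPL7L1 (-0.0646), RPLP1 (-0.0619), RPS6 (-0.0615), RPS3 (-0.12) and RPL5 (-0.0367), and at 5 d over 16 h RPL7L1 (0.0723), RPL5 (0.0182), RPL38 (0.0174) and RPS25 (0.12); the cause was not tested.

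For siSCIRT#1, 1 member, RPL39L, was called lower at a mean of at least 50, with quantile, total reads, the remaining reads, only the compared groups, DESeq2 and the deposited log2 values, and leaving out 1 library gave 0 to 1. For siSCIRT#2 it was called lower with only the compared groups and DESeq2, and 0 to 1 with 1 library left out. For siEZH2, 1 member was called higher with quantile, total reads and the remaining reads, 0 higher and 0 lower passed a fold of at least 1.5, and leaving out 1 library gave 0 to 1 higher and 0 to 1 lower. The replicate numbers were not taken to pair the libraries (same-number correlations over all genes of 0.0208 to 0.299 for siSCIRT, -0.0854 for siEZH2 and -0.00894 to 0.0185 for culture). Over all genes the siSCIRT correlations had a median of 0.102 for same numbers and -0.0857 for different numbers. Over the members alone the siSCIRT correlations had a median of 0.374 for same numbers and -0.0974 for different numbers, and 5 of 9 libraries over all genes, or 6 of 9 over the members, correlated best with their own number in every other group, which is a hint from the data and not from the design. With the replicate block, siSCIRT#1 had 1 member higher and 1 lower, siSCIRT#2 1 lower, and siEZH2 0 higher and 0 lower, and calls over all genes became 1543 higher and 1601 lower for siSCIRT#1 (769 and 924 without it), 1552 and 1558 for siSCIRT#2 (746 and 838), and 333 and 199 for siEZH2 (617 and 465). Of all counts and medians recomputed, 382 stayed close to the value reported and 70 moved, and 2 libraries per group limit the culture and siEZH2 results.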
